A study of Mus musculus with 196 samples.

Results

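Sebaceous glands are lipid-secreting glands attached to the hair follicle, and their cells fill with wax esters, triglycerides and cholesterol esters before they burst into the follicle canal. Wax esters are built from a fatty alcohol, made by a fatty acyl-CoA reductase, and a fatty acid, joined by a wax synthase. The fatty acids are lengthened by elongases and given a double bond by desaturases, and melanocortin receptors are among the receptors known to act on the gland. The 9 genes described here were listed by name: the wax alcohol acyltransferases Awat1 and Awat2, their relative Dgat2l6, the reductase Far2, the elongase Elovl3, the stearoyl-CoA desaturases Scd1 and Scd3, the sterol acyltransferase Soat1 and the melanocortin 5 receptor Mc5r. Of these 9, 8 were measured by a probe set assigned to that gene alone, out of 18820 genes measured in this way; Soat1 was not analysed here.

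The arrays came from 100 backcross mice. Female FVB/N mice had been crossed with male Mus spretus, and the F1 daughters were mated with FVB/N males, so each mouse drew a different set of Mus spretus alleles; genotypes were not used here. All mice were untreated, were 8 weeks old, and gave total RNA from shaved dorsal (back) skin, tail skin or both. The arrays fell into 85 of back skin outside anagen (41 females, 44 males), 14 of back skin in anagen, when hair grows (8 females, 6 males), and 97 of tail skin (48 females, 49 males). Both sites had been arrayed in 96 mice, of which 82 had non-anagen back skin. Back arrays lay in batches of 89 and 10 and tail arrays in batches of 94 and 3, so batch and site cannot be told apart, and all anagen arrays were in the batch of 89.

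The labels were checked against marker genes. The mean log2 level of 4 inner root sheath markers (Krt25, Krt27, Krt71, Tchh), which mark growing hair, ran from 4.93 to 6.57 in non-anagen back skin, from 6.92 to 12.61 in anagen back skin and from 6.55 to 11.66 in tail skin, so the anagen and non-anagen arrays did not overlap. The mean of 5 sebaceous markers outside the 9 genes (Krt79, Fa2h, Cidea, Plin2, Pparg) ran from 9.42 to 10.84 in non-anagen back, from 9.28 to 10.91 in anagen back and from 9.80 to 10.95 in tail skin, and these ranges overlapped. Across mice, r between this mean and each of the measured genes was 0.56 to 0.84 in non-anagen back skin (6 genes, n = 85), with Far2 highest and Scd1 lowest, and 0.14 to 0.79 in tail skin (7 genes, n = 97), with Far2 highest and Awat2 lowest. In whole skin, fewer gland cells and less RNA per gland cell cannot be told apart. Array values are log2 signals of a probe set, so levels are compared between arrays for 1 gene and not between genes, and the desaturase genes Scd1 to Scd4 are close enough in sequence that part of a signal may be shared.

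The first comparison was between tail skin and non-anagen back skin. Elovl3 was 2.42-fold higher in tail skin, while Awat2 was 3.15-fold and Scd3 2.26-fold lower, and these 3 passed the rule of an adjusted p under 0.05 with a difference of at least 1 on the log2 scale. By that rule 1 of the 8 genes was higher and 2 were lower, against 3.94% and 2.02% of all genes. At any size all 8 passed, 4 higher and 4 lower, against 43.7% and 43.4% of all genes, so that count is near the background in each direction. With all arrays moved to a common median, the median difference of all genes went from -0.0005 to -0.14, and the all-gene counts by the size rule changed from 741 higher and 381 lower to 560 and 529.

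Among the wax-making enzymes, Far2 (probe set 10542857), which makes fatty alcohols, had almost the same level at both sites. Its log2 values ran from 11.07 through a median of 12.07 to 12.62 in non-anagen back skin and from 11.67 through 12.14 to 12.46 in tail skin. The difference was 0.12 ± 0.04 (SE; adjusted p = 0.0027) and came to -0.02 (adjusted p = 0.675) with arrays shifted to the same median, so its direction rests on the scaling.

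Awat1 (probe set 10600988), a wax synthase, ran from 8.52 through 10.97 to 11.73 in non-anagen back skin and from 10.25 through 11.11 to 11.71 in tail skin. The lowest back arrays lay far below any tail array, while the highest values at both sites were alike. The difference was 0.46 ± 0.09 (adjusted p = 1.4e-06), and the tail was higher in 56 of 82 mice.

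Awat2 (probe set 10605929), the other wax synthase, ran from 6.29 through 9.27 to 10.94 in non-anagen back skin and from 4.92 through 7.31 to 9.41 in tail skin. The sites overlapped, yet the tail was lower in 74 of 82 mice. The difference was -1.66 ± 0.16 (adjusted p = 1.2e-19).

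Dgat2l6 (probe set 10600980), a member of the acyltransferase family that holds the wax synthases, ran from 6.20 through 9.39 to 10.99 in non-anagen back skin and from 6.97 through 8.64 to 9.68 in tail skin. Its tail values sat inside the range of its back values. The difference was -0.48 ± 0.13 (adjusted p = 0.00026), and the tail was lower in 55 of 82 mice.

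Among the enzymes that shape the fatty acid, Elovl3 (probe set 10463551), which elongates saturated and monounsaturated fatty acids, ran from 8.22 through 10.08 to 11.06 in non-anagen back skin and from 9.92 through 11.25 to 12.00 in tail skin. The ranges overlapped across mice, but within a mouse the tail was higher in all 82, by 0.39 to 2.68. The difference was 1.28 ± 0.07 (adjusted p = 1e-43). Elovl3 is also known from brown fat. The mean of 4 other brown adipocyte markers (Ucp1, Cox8b, Cidea, Dio2) ran from 5.63 to 7.20 in non-anagen back and from 5.62 to 6.45 in tail skin. Of these, Cox8b (-0.84, adjusted p = 2.6e-08), Cidea (-0.39, adjusted p = 2.2e-10) and Dio2 (-0.31, adjusted p = 4.4e-16) were lower in tail skin, and Ucp1 differed by -0.03 (adjusted p = 0.525). Cidea is also among the sebaceous markers above, so its value is not one of brown fat alone. The part of brown fat in the level of Elovl3 was not tested.

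Scd3 (probe set 10463347), a desaturase, ran from 8.82 through 11.64 to 12.26 in non-anagen back skin and from 5.57 through 10.73 to 11.73 in tail skin, where some arrays fell far below any back array. The difference was -1.18 ± 0.15 (adjusted p = 2.7e-13), and the tail was lower in 75 of 82 mice. Scd1 (probe set 10467979), a paralogue on the same chromosome, ran from 12.20 through 12.63 to 12.89 in back and from 12.27 through 12.52 to 12.77 in tail skin. Its difference was -0.11 ± 0.02 (adjusted p = 6.4e-07), and the tail was lower in 59 of 82 mice.

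The receptor gene Mc5r (probe set 10456513) ran from 7.39 through 9.50 to 10.52 in non-anagen back skin and from 9.11 through 10.27 to 11.07 in tail skin. It was higher in the tail in 80 of 82 mice, with a difference of 0.83 ± 0.08 (adjusted p = 1.3e-21), short of the size rule.

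**Figure D1:**
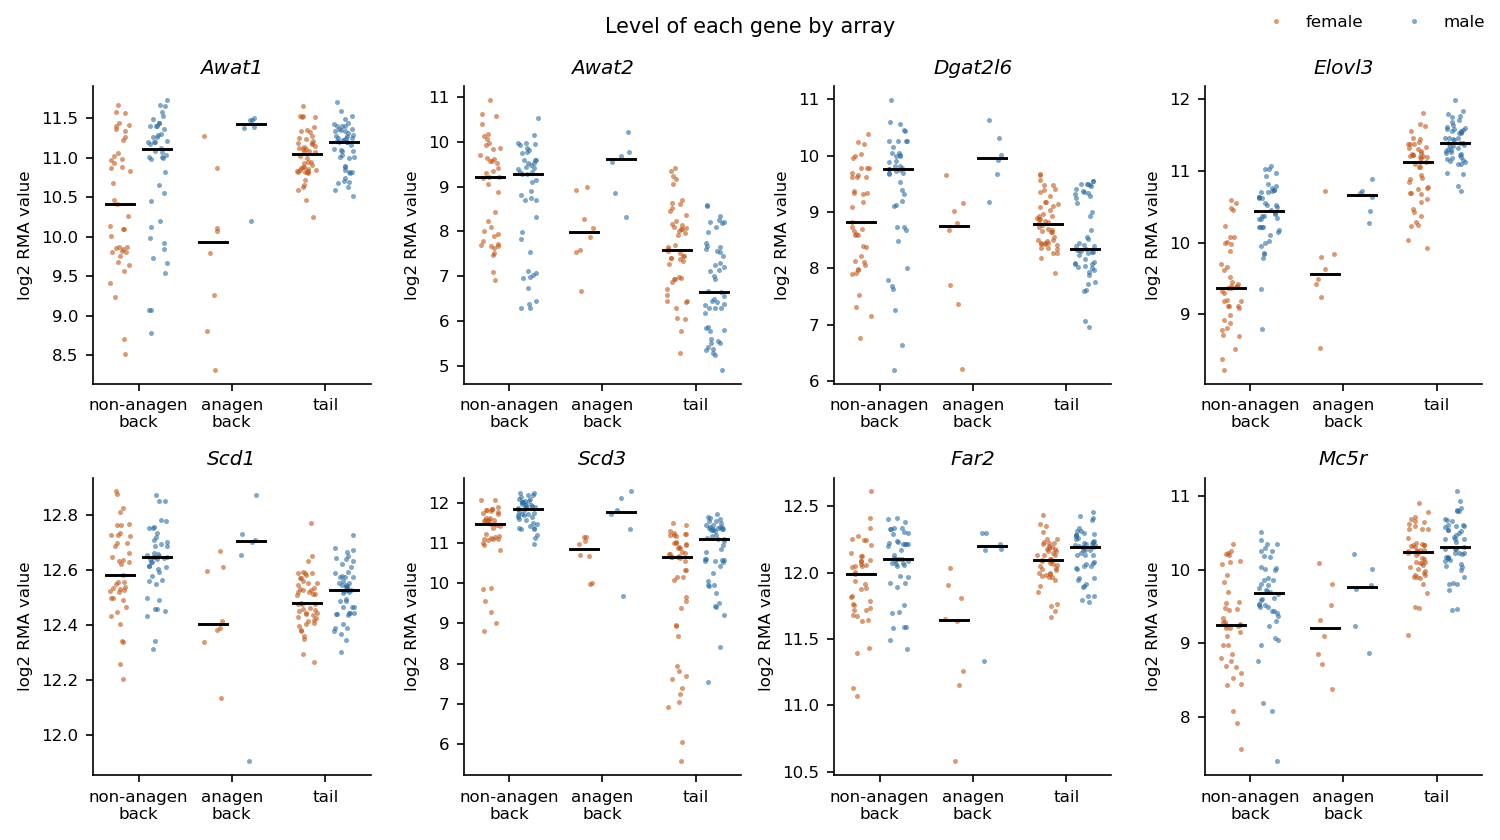
Log2 RMA value of each of the 8 genes on every array, by site, hair-cycle state and sex; each point is 1 array and the black bars are medians. Elovl3 and Mc5r sit higher in tail skin, Awat2 and Scd3 lower, and the vertical scale differs between panels.

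Markers of other tissues also differed between the sites. All 4 smooth muscle markers (Des, Myh11, Cnn1, Actg2) were lower in tail skin (median -3.13), and their mean ran from 7.63 to 9.84 in non-anagen back against 4.89 to 7.25 in tail skin. All 6 skeletal muscle markers were lower as well (median -2.23), and of 8 white adipocyte markers 3 were higher and 2 lower at any size. The 5 epidermal keratinocyte markers had means of 11.65 to 12.44 in back and 12.11 to 12.53 in tail skin. The part of tissue make-up in the differences between sites was not tested.

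Other genes of the same pathways included members higher and members lower in tail skin, except the desaturases. The lists were compared by their counts at any size, beside the background above. Of 13 fatty acid synthesis and elongation genes 9 were higher and 3 lower in tail skin, with a median of 0.14 against -0.0005 over all genes. The elongase genes Elovl7 and Elovl5 differed by 1.03 and -1.35, while Acacb, an acetyl-CoA carboxylase, differed by -0.54 and Elovl1 by -0.42. Of 6 other desaturase genes 4 were higher and none was lower (median 0.47): Scd2 by 1.41, Fads3 by 0.78, Fads2 by 0.73 and Fads6 by 0.21. Scd2 therefore stood higher in tail skin where Scd1 and Scd3 stood lower.

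Of 13 measured genes of ester synthesis and acyl activation, 6 were higher and 4 lower (median 0.02). Dgat2, which makes triglycerides, was higher by 0.62, Agpat3 by 0.60 and Agpat2 by 0.58, and Acsl5, an acyl-CoA synthetase, fell by 0.65. Of 12 lipid droplet genes 7 were higher and 4 lower (median 0.24), led by the lipases and co-activator Mgll (0.85), Abhd5 (0.76), Lipe (0.65) and Pnpla2 (0.49). Of 11 gland regulators and markers 6 were higher and 4 lower (median 0.12): Hsd3b6 by 1.30 and Srebf1, a lipogenic transcription factor, by 0.76, against Gata6 by -0.98 and Lrig1 by -0.90. In the melanocortin list, 2 of 7 were higher and 5 lower (median -0.21). Mc1r, the pigment cell receptor, was higher by 1.34, and Mc2r, Pomc and Mrap2 differed by -0.80, -0.36 and -0.36.

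Compared with anagen back skin in place of non-anagen back skin, tail skin again differed by the size rule in Awat2 (-1.38 ± 0.31, adjusted p = 3.4e-05) and Elovl3 (1.12 ± 0.13, adjusted p = 7.8e-14). That is 1 of 8 genes in each direction, against 3.33% of all genes higher and 1.69% lower. With arrays shifted to the same median Elovl3 came to 0.98 and with quantile normalization to 0.93, both under the size rule; the all-gene counts went from 627 higher and 318 lower to 447 and 439 after the shift. Scd3 differed by -0.80 ± 0.28 (adjusted p = 0.0084), and by -1.01 without the 5 arrays of lowest correlation to their group.

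The anagen comparison asked how these genes stood in back skin with growing hair. None of the 8 passed the size rule between anagen and non-anagen back skin, against 0.68% of all genes higher and 0.00531% lower. By limma 2 of the 8 had an unadjusted p under 0.05, against 24.3% of all genes, so that count is near the background. At any size 1 of 8 passed, in a setting with 5.69% of all genes called higher and 6.63% lower. That gene was Far2, with a difference of -0.24 ± 0.07 (adjusted p = 0.0174), and with the 5 arrays of lowest correlation to their group left out, 3 of them anagen arrays, it came to -0.12 (adjusted p = 0.467); on back arrays alone its adjusted p was 0.0984. The 95% confidence intervals of the others were -0.53 to 0.17 for Awat1, -0.88 to 0.36 for Awat2, -0.56 to 0.38 for Dgat2l6, -0.08 to 0.44 for Elovl3, -0.19 to -0.03 for Scd1 (adjusted p = 0.0592), -0.99 to 0.15 for Scd3 and -0.33 to 0.26 for Mc5r. In the same comparison 3 of 8 white adipocyte markers were higher in anagen skin at any size (median 0.49). Of the 5 epidermal markers 3 were lower at any size (median -0.20). None of either list passed the size rule, and their part was not tested.

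The tails of the 14 mice with anagen back skin were compared with those of the 82 mice without. By limma none of the 8 genes passed, 0 had an unadjusted p under 0.05, and of all genes 0% were called higher and 0% lower, with 1.98% at an unadjusted p under 0.05. The anagen difference in back skin minus that in tail skin was called for none of the 8 genes either. By limma 0 of the 8 had an unadjusted p under 0.05 for it, against 13.9% of all genes. Of all genes 2.56% were called higher and 1.22% lower. After the shift those all-gene counts went from 481 higher and 230 lower to 436 and 376.

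Within the anagen arrays the sexes stood apart in some of the genes. Awat1 in the 8 females was 8.31, 8.81, 9.26, 9.79, 10.08, 10.11, 10.86 and 11.28, and in the 6 males 10.20, 11.37, 11.38, 11.47, 11.48 and 11.50. All males but the lowest were above every female. Awat2 ran from 6.68 through 7.98 to 8.99 in females and from 8.32 through 9.61 to 10.21 in males, and Dgat2l6 from 6.22 through 8.75 to 9.66 and from 9.18 through 9.96 to 10.63. The anagen difference of females minus that of males was -1.01 ± 0.35 for Awat1, -1.63 ± 0.62 for Awat2, -1.11 ± 0.47 for Dgat2l6 and -0.43 ± 0.15 for Far2, and below 0 for all 8. The median over all genes was -0.01. None of the 8 passed the adjusted threshold by limma (adjusted p = 0.144, 0.205, 0.265 and 0.144 for the 4 genes named), against 0.287% of all genes called higher and 0.0531% lower. These 4 of the 8 had an unadjusted p under 0.05 by limma, against 13.2% of all genes. This comparison was added after the values had been seen.

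**Figure D2:**
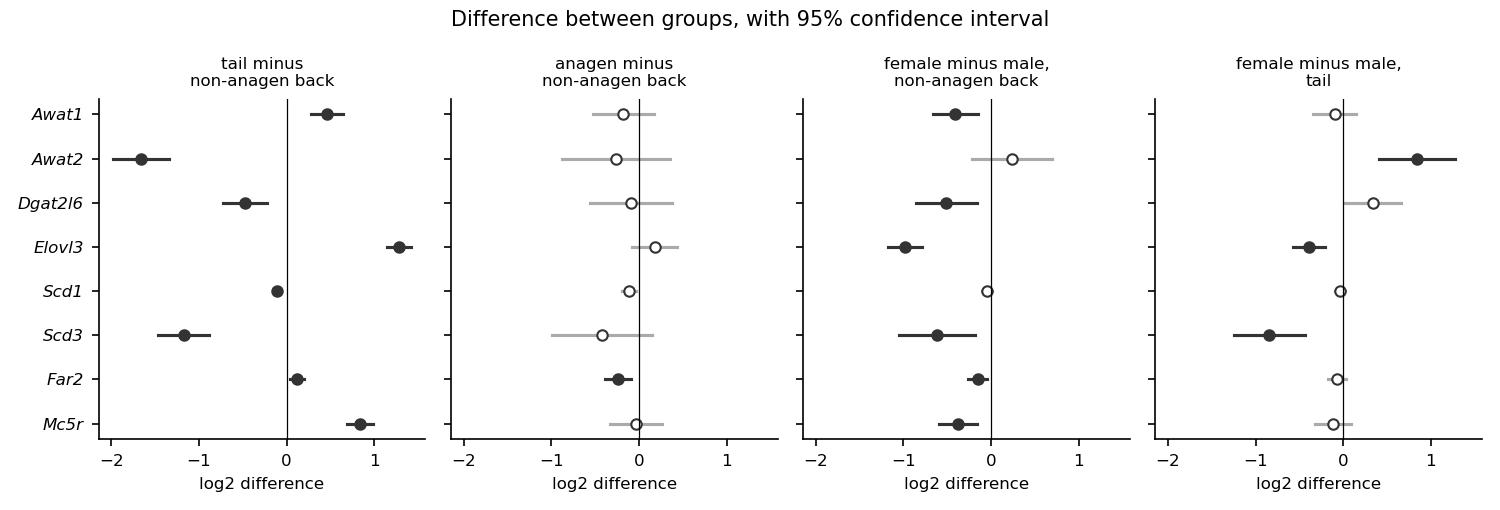
Differences between groups for each gene on the log2 scale, with 95% confidence intervals from limma; filled points have an adjusted p under 0.05 and open points do not. The intervals for tail against non-anagen back skin exclude 0 for all 8 genes, and Elovl3 is lower in females at both sites.

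Between the sexes, Elovl3 stood out in non-anagen back skin. It ran from 8.22 through 9.37 to 10.60 in females and from 8.79 through 10.44 to 11.06 in males, so the ranges overlapped but the upper quartile of females (9.89) lay below the lower quartile of males (10.20). The female minus male difference was -0.99 ± 0.10 (adjusted p = 1.3e-16), a level 1.98-fold lower in females. Fitted on back arrays alone its adjusted p was 3.8e-11. Over all 8 genes, 6 were called lower in females and none higher, against 8.89% of all genes lower and 9.84% higher.

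The other 5 calls were smaller and less firm. Scd3 differed by -0.62 ± 0.22 (adjusted p = 0.0327), Dgat2l6 by -0.51 ± 0.18 (adjusted p = 0.0277), Awat1 by -0.41 ± 0.13 (adjusted p = 0.0174), Mc5r by -0.38 ± 0.11 (adjusted p = 0.0092) and Far2 by -0.15 ± 0.06 (adjusted p = 0.0396). That fit shares 1 estimate of spread between back and tail skin. With back arrays alone 2 of 8 genes were called, Elovl3 and Scd3, and the adjusted p was 0.109 for Awat1, 0.108 for Dgat2l6, 0.141 for Far2 and 0.0553 for Mc5r. With arrays of the larger batch at each site alone 3 were called. The all-gene counts fell as well, from 1851 higher and 1674 lower to 970 and 1073 on back arrays alone. With the larger batches they were 1330 and 1445. Awat2 differed by 0.24 ± 0.23 (95% confidence interval -0.22 to 0.69) and Scd1 by -0.04 ± 0.03. Under the median shift the all-gene counts went from 1851 higher and 1674 lower to 889 and 2633.

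In non-anagen back skin the lowest values of Scd3 were in females. It ran from 8.82 through 11.47 to 12.07 in females and from 10.98 through 11.85 to 12.26 in males. In 6 of these arrays, all of females, Scd3 lay between 8.82 and 9.89, and in the remaining 79 between 10.83 and 12.26, with no non-anagen array between. Anagen back arrays did not keep to this: 1 male read 9.68, and 4 females read 9.98, 10.01, 10.67 and 10.71. Mc5r ran from 7.57 through 9.24 to 10.34 in females and from 7.39 through 9.68 to 10.52 in males, a large overlap.

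In tail skin 1 gene was called higher in females and 2 lower, against 0.696% and 0.361% of all genes. Awat2 ran from 5.30 through 7.58 to 9.41 in females and from 4.92 through 6.66 to 8.58 in males, and the difference was 0.84 ± 0.22 (adjusted p = 0.0212). Elovl3 ran from 9.92 through 11.12 to 11.81 in females and from 10.72 through 11.39 to 12.00 in males, a difference of -0.39 ± 0.09 (adjusted p = 0.0080). Scd3 ran from 5.57 through 10.65 to 11.50 in females and from 7.54 through 11.09 to 11.73 in males, a difference of -0.84 ± 0.21 (adjusted p = 0.0104, and 0.0528 on tail arrays alone). In 12 tail arrays, 10 of them of females, Scd3 lay between 5.57 and 8.42, below the other 85 at 8.70 to 11.73. Dgat2l6 differed by 0.34 ± 0.17 (adjusted p = 0.447).

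The sex difference itself differed between the sites for Dgat2l6 and Elovl3. For Dgat2l6 it was -0.51 in back and 0.34 in tail skin, so that the back value minus the tail value was -0.85 ± 0.24 (adjusted p = 0.0155). For Elovl3 it was -0.99 and -0.39, with -0.60 ± 0.13 between them (adjusted p = 0.0016). These were 2 of 8 genes, both lower, against 3.97% of all genes lower and 3.76% higher, and 707 higher and 747 lower became 401 and 1009 after the median shift. With arrays of the larger batch at each site alone, Dgat2l6 came to -0.74 (adjusted p = 0.0546). For Awat2 the difference between sites was -0.61 ± 0.32 (adjusted p = 0.247). In the same contrast all 4 smooth muscle markers were lower (median -0.58), and 1 of 8 white adipocyte markers was, Fabp4 (-0.93, adjusted p = 0.0093). Their part in the values of Dgat2l6 and Elovl3 was not tested.

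Other lipid genes were also counted by sex, against 8.89% of all genes lower in females and 9.84% higher in non-anagen back skin and 0.361% and 0.696% in tail skin. In non-anagen back skin, 7 of 13 fatty acid synthesis genes were lower in females and 2 higher, led by Acacb (-0.66), Acss2, which makes acetyl-CoA from acetate (-0.63), Elovl7 (-0.54) and Hsd17b12 (-0.32). Of 6 desaturase genes Fads6 (-0.30) and Scd2 (-0.28) were lower and none higher, with Fads3 at -0.21 (adjusted p = 0.296) and Scd4 at -0.16 (adjusted p = 0.121). Of 13 ester synthesis genes 2 were lower, Dgat1 (-0.66) and Lpin1 (-0.29), and 3 higher, among them Agpat3 (0.30) and Acsbg1 (0.19). Of 12 lipid droplet genes 4 were lower, including Mgll (-0.66), Cidea (-0.39) and Plin2 (-0.31), and of 11 gland regulators and markers 4 were lower and 1 higher, with Fa2h at -0.35, Fabp5 at -0.32 and Mgst1 at -0.24. Cidec (0.23, adjusted p = 0.503) and Hsd3b6 (0.31, adjusted p = 0.0693) did not pass. None of 7 melanocortin genes passed; the most different were Mc2r (-0.17), Mc1r (0.12), Mrap2 (0.07) and Mc4r (-0.06).

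In tail skin, where the share of all genes called was also smaller, Acacb (-0.44), Acss2 (-0.31) and Acly (-0.17) were lower in females, Fads1 was higher (0.32) and Fa2h lower (-0.28); no ester synthesis, lipid droplet or melanocortin gene passed. Among the genes that did not pass, Fads2 differed by 0.38 (adjusted p = 0.0662), Fads3 by -0.06, Scd4 by -0.05 and Hsd17b12 by -0.16. Dgat1 differed by -0.25 (adjusted p = 0.0542), Far1 by -0.12, Lpin1 by -0.11 and Mogat1 by 0.11. Lipid droplet genes differed by 0.56 (Cidec), 0.54 (Plin1), -0.22 (Mgll) and -0.18 (Cidea). Hsd3b6 differed by -0.21, Gata6 by -0.13 and Krt79 by -0.11, and Mc2r by 0.18, Mrap by 0.14, Mc1r by 0.06 and Mrap2 by 0.05. Marker lists moved with sex too: 2 of 4 smooth muscle markers were lower in females in back skin, where their mean ran from 7.78 to 9.62 in females and from 7.63 to 9.84 in males, and 1 of 8 white adipocyte markers was higher in females in tail skin. Their part in the sex differences was not tested.

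Across mice, the genes were then compared with each other within each group, after adjustment for sex and batch. A gene whose values fell into separate clusters, 4 or more pooled SDs apart with 6 or more arrays on each side, was given no pooled r; this left out Awat2 and Scd3 in non-anagen back and Scd3 in tail skin. P-values come from 100000 permutations, two-sided, adjusted over the 64 pairs of the 3 groups, and the smallest p they can give is 1e-05. The share of pairs that pass among all genes is not given here. The counts of pairs below are thus not set against a background, and other genes of the same arrays may be correlated as often.

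In non-anagen back skin all 15 pairs of the other 6 genes were positively correlated (median r = 0.48, n = 85). The strongest were among Awat1, Dgat2l6 and Far2. Awat1 and Dgat2l6 had r = 0.95 (Spearman's rho = 0.94, p = 1e-05 for both, adjusted p = 3.4e-05), and r = 0.94 without the 2 arrays farthest from the median of Awat1. Awat1 and Far2 had r = 0.86 and Dgat2l6 and Far2 r = 0.80, each also at p = 1e-05. In the larger batch alone (n = 75) the 3 values were 0.95, 0.87 and 0.83. The weakest pair, Elovl3 and Mc5r, had r = 0.23 (p = 0.032, adjusted p = 0.0445; rho p = 0.472), and 0.14 without the 2 farthest arrays (adjusted p = 0.273), so it rests on those arrays.

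Awat1 itself was unevenly spread in back skin. Its best split, into 31 lower and 54 higher arrays, was 3.44 pooled SDs wide, and within males alone it reached 4.51 (11 at 8.78 to 10.19 and 33 at 10.45 to 11.73), as males also did for Dgat2l6 (7 and 37 arrays) and Far2 (8 and 36 arrays). A check added after the values were seen therefore gave r within each side of the Awat1 split. Awat1 and Dgat2l6 had r = 0.88 among the 31 and 0.84 among the 54, Awat1 and Far2 0.81 and 0.68, and Dgat2l6 and Far2 0.62 and 0.59. Within males they were 0.85 among the 11 and 0.84 among the 33, 0.85 and 0.49, and 0.63 and 0.42. All 12 had an adjusted p under 0.05.

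Awat1 and Dgat2l6 are neighbouring genes on the X chromosome, with no protein-coding gene between them, and Awat2 lies 2 protein-coding genes away, while Far2 is on chromosome 6. The 250 bases before the annotated start of the 3 genes whose levels moved together most closely are shown, so that their promoters can be compared. They are from RefSeq (GRCm38.p6), all on the plus strand, at chrX:100571997-100572246 for Awat1, chrX:100524588-100524837 for Dgat2l6 and chr6:148047166-148047415 for Far2. Capitals mark letters that match a searched motif on either strand.
Awat1: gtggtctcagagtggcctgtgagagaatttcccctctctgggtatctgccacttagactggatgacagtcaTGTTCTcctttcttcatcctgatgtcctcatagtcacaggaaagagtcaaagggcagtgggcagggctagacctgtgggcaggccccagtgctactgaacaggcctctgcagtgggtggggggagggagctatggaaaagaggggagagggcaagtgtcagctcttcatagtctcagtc
Dgat2l6: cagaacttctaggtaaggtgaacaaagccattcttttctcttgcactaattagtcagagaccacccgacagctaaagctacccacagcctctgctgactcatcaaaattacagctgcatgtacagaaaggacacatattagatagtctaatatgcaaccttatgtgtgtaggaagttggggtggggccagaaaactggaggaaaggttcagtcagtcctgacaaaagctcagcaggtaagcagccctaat
Far2: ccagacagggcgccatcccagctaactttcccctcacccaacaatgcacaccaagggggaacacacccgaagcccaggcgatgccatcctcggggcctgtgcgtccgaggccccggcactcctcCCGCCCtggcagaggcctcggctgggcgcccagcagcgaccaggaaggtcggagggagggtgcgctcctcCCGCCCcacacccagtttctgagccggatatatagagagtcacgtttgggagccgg
Promoters of 6 of the 9 genes were searched, and those of Elovl3, Scd1 and Mc5r were not. The search covered 300 bases, to 50 after the start, on both strands, for 6 motifs: the nuclear receptor half-site AGGTCA, the androgen or glucocorticoid receptor half-site TGTTCT, the TATA box as TATAAA, the CCAAT box as CCAAT, the E-box as CACGTG and the GC box as GGGCGG. The matches do not overlap each other. Awat1 held TGTTCT once, starting at position -179 from the start site, and 19.0% of 32851 promoters hold it. It also held CCAAT once, reversed, at position 43, outside the bases shown, a motif in 37.4% of promoters. Far2 held GGGCGG 2 times, reversed, at positions -126 and -56, a motif in 35.7% of promoters. Dgat2l6 held none of the 6 motifs in this window. The nuclear receptor half-site (16.3% of promoters), the TATA box (13.6%) and the E-box (7.15%) were in none of the 3. A match of letters is a description and no evidence of a site.

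In tail skin Scd3 was left out. Of 21 pairs among 7 genes 14 were positively and 1 negatively correlated (median r = 0.31, n = 97). Far2 and Mc5r were the closest pair, with r = 0.72 (p = 1e-05, adjusted p = 3.4e-05; rho = 0.72, p = 1e-05), followed by Scd1 and Far2 at 0.64 and Awat1 and Far2 at 0.60. Far2 was positively correlated with all 6 others, from 0.22 (Elovl3) to 0.72.

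Awat2 in tail skin went with Dgat2l6 (r = 0.54, p = 1e-05, adjusted p = 3.4e-05) but not detectably with Awat1 (r = 0.09, p = 0.377, adjusted p = 0.402). With Elovl3 it was negatively correlated. That r was -0.44 (p = 3e-05, adjusted p = 8.7e-05), and -0.42 without the 2 arrays farthest from the median of Awat2. It was -0.63 in the 48 females and -0.18 in the 49 males; the difference between the sexes was not tested.

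**Figure D3:**
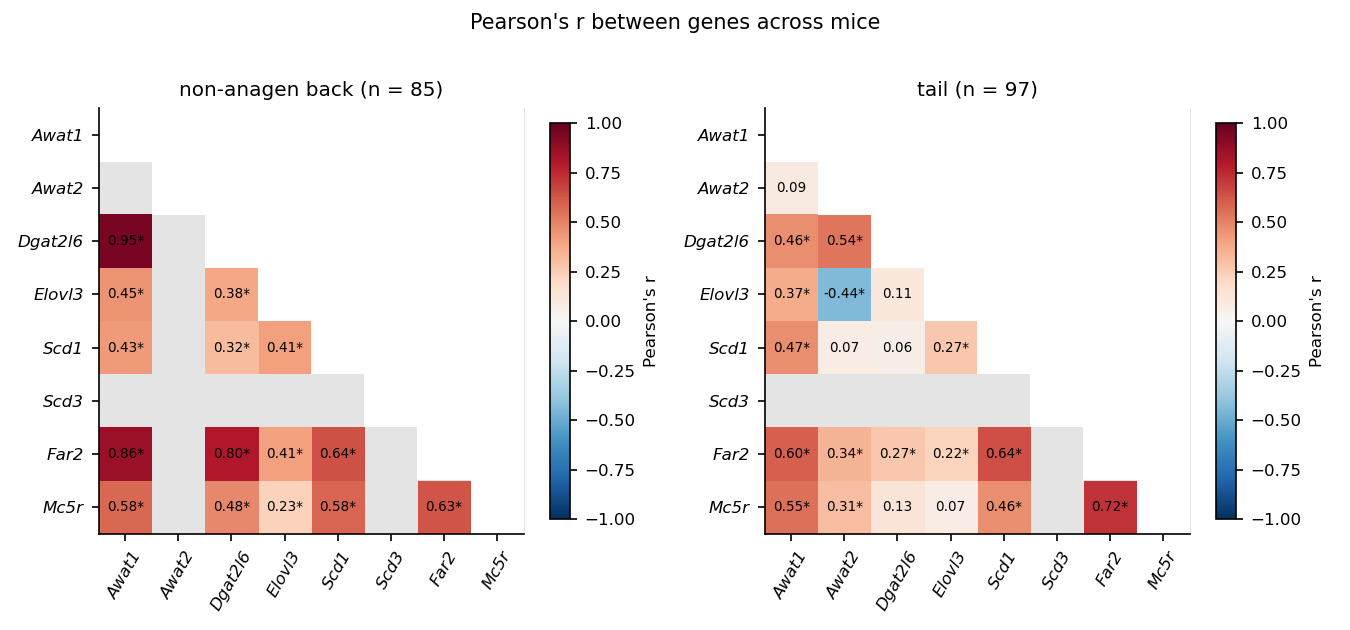
Pearson's r between genes across mice within each site, adjusted for sex and batch; asterisks mark an adjusted p under 0.05 and grey cells pairs with a gene in separate clusters, which have no pooled r. All 15 pairs in non-anagen back skin are positive, from 0.23 to 0.95, and tail skin holds the single negative pair, Awat2 and Elovl3 at -0.44.

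A test of the difference between sites, which swapped the sites within each of 82 mice, was added for the 15 pairs measured at both. Awat1 and Dgat2l6 were more closely correlated in back than in tail skin (0.95 against 0.45, p = 1e-05, adjusted p = 0.00015), and so were Dgat2l6 and Far2 (0.80 against 0.34, p = 0.00066, adjusted p = 0.0050). The other 13 pairs did not pass; Awat1 and Far2 had 0.86 against 0.63 (p = 0.0153, adjusted p = 0.0763) and Far2 and Mc5r 0.61 against 0.71 (p = 0.311, adjusted p = 0.389). In males alone the second pair did not pass (adjusted p = 0.317).

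The spread between mice also differed between sites, by the same kind of test over 8 genes. It was larger in back skin for 6 of them, and most so for Awat1, whose SD after adjustment was 0.79 in back and 0.28 in tail skin (p = 1e-05, adjusted p = 2.7e-05). Dgat2l6 had 1.01 and 0.54, Mc5r 0.64 and 0.36, Far2 0.29 and 0.17, Scd1 0.14 and 0.09, and Elovl3 0.53 and 0.36. Scd3 was the exception, with 0.61 in back and 1.30 in tail skin (p = 1e-05, adjusted p = 2.7e-05). Awat2 had 1.16 and 1.01 (adjusted p = 0.0539). The share of all genes with a larger spread in back skin is not given here, so these counts have no background. Over all genes, non-anagen back arrays were also less alike than tail arrays. The median over arrays of the median r with their group was 0.9767 in non-anagen back and 0.9885 in tail skin.

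**Figure D4:**
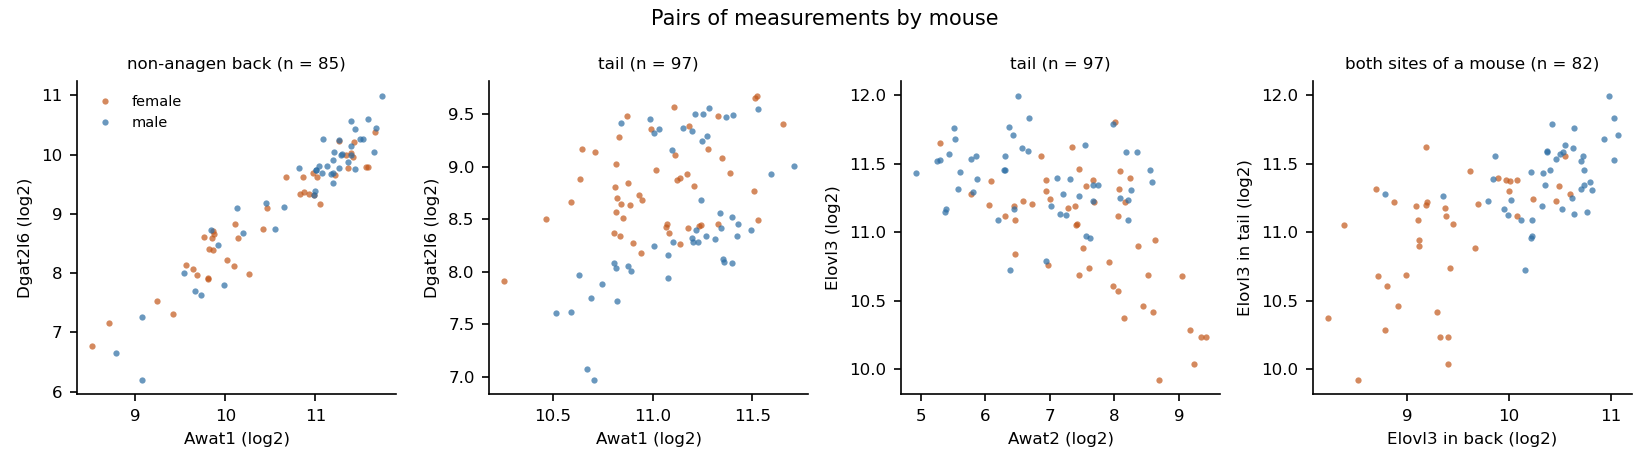
Unadjusted log2 values of pairs of measurements, 1 point per mouse, coloured by sex: Awat1 against Dgat2l6 in non-anagen back and in tail skin, Awat2 against Elovl3 in tail skin, and Elovl3 at both sites of a mouse. The back points lie near a line from 8.52 to 11.73 of Awat1, while in tail skin Awat1 spans 10.25 to 11.71 and the points are scattered.

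The genes left out of the pooled correlations were described within their clusters. Awat2 in non-anagen back skin was low in 30 arrays (6.29 to 8.44, 16 of females) and high in 55 (8.69 to 10.94, 25 of females). Median Scd3 was 9.4 in its 6 low and 11.7 in its 79 high non-anagen back arrays. In tail skin it was 7.5 in the 12 low and 10.9 in the 85 high arrays. Neither genotypes nor probe sequences were used here. Whether these clusters and low Scd3 values reflect less RNA or a weaker signal from a Mus spretus allele under the probes was not tested. Over 38 pairs within clusters, Awat2 went with Dgat2l6 (r = 0.67, p = 7e-05, adjusted p = 0.00067) and Awat1 (r = 0.49, p = 0.0060, adjusted p = 0.0327) in the low cluster, and with Awat1 (r = 0.35, p = 0.0089, adjusted p = 0.0422) in the high one. Scd3 in the 79 higher back arrays went with Far2 (r = 0.65), Dgat2l6 (0.51), Awat1 (0.51) and Mc5r (0.40), each with an adjusted p of at most 0.0024. In the 85 higher tail arrays it passed with Far2 (r = 0.31, p = 0.0034, adjusted p = 0.0212). The clusters of 6 and 12 arrays gave no call.

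In anagen back skin 17 of 28 pairs passed and all 28 values of r were positive (median 0.60, n = 14). The closest were again Awat1 with Dgat2l6 (0.93) and Far2 (0.92) and Dgat2l6 with Far2 (0.90). Without the 2 arrays farthest from the median of the first gene 7 pairs passed, and 6 did without the 5 arrays of lowest correlation to their group.

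The sites of the same mouse were then compared for the 6 genes without clusters at either site (82 mice). Elovl3 was correlated between back and tail skin (r = 0.50, rho = 0.54, p = 1e-05 for both, adjusted p = 6e-05; r = 0.51 without the 2 farthest arrays), in females (0.54, n = 39) and in males (0.42, n = 43). Mc5r was as well (r = 0.39, p = 0.0005, adjusted p = 0.0015; rho = 0.40). Dgat2l6 had r = 0.26 (p = 0.0176, adjusted p = 0.0353), with rho = 0.20 (p = 0.0736), and 0.03 in females against 0.37 in males. Awat1 (0.10), Far2 (0.08) and Scd1 (-0.01) did not pass (adjusted p = 0.555, 0.555 and 0.963).

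Markers of other cell types were set beside the back correlations. Across the 85 non-anagen back arrays, r of the 6 genes with the mean of the smooth muscle markers was 0.26 (Scd1) to 0.52 (Awat1), with the epidermal markers -0.42 (Far2) to -0.05 (Scd1), and with the white adipocyte markers -0.02 to 0.17. In tail skin the smooth muscle values were -0.18 to 0.16. These values describe arrays that share RNA, and the part of tissue make-up in the correlations was not tested.

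Among all other genes, likeness was the lower of the mean r with the 8 measured genes in non-anagen back and in tail skin. The 10 most alike were Dgat1 (0.45), Pparg (0.45), Sec14l4 (0.45), Hsd3b6 (0.45), Sdr16c6 (0.44), Ces4a (0.42), Dbt (0.42), Rdh11 (0.42), Crat (0.42) and Cyp2j12 (0.41). Over the 6 genes without clusters, 6 of these 10 were again among the 10 most alike. Dgat1 makes triglycerides, and Pparg is a nuclear receptor of fat-forming cells and among the sebaceous markers above. For single genes, the most alike at both sites was Dgat1 for Awat1 (r = 0.86 in back and 0.85 in tail skin), Pparg for Far2 (0.85 and 0.80), Lhpp for Elovl3 (0.82 and 0.77), Crat, a carnitine acetyltransferase, for Mc5r (0.73 and 0.73), Rnf128 for Dgat2l6 (0.68 and 0.51) and Secisbp2l for Scd1 (0.66 and 0.58). Of the 10, Hsd3b6 differed most between tail and non-anagen back skin, by 1.30, and Pparg alone was lower in tail skin, by -0.11. The others had positive differences, from 0.17 (Cyp2j12, which did not pass at an adjusted p under 0.05) to 0.63 (Sec14l4).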

How the data were processed

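Deposited log2 values of Affymetrix gene arrays were analysed. The authors made them with RMA, per the submitters' processing notes; its version, any batch adjustment and the build were not given in the sources used here. Per the labels, 1 ug of total RNA was biotin-labelled. RMA was run by the authors across arrays, so a value depends on the other arrays.

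Of 35556 probe sets 21218 name 1 gene, 1881 several and 12457 none; the brightest probe set per gene gave 18820 genes. Values ran from 0.904 to 13.83 and array medians from 5.67 to 6.03. No arrays were identical. The lowest median correlation of an array with its group was 0.941 in anagen back, 0.954 in non-anagen back and 0.960 in tail skin. Files of arrays give no depth; their number limits precision.

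limma 3.58.1 (R 4.3.3; lmFit, eBayes, Benjamini-Hochberg over all genes) fitted site, hair-cycle state and sex; p-values treat mice as replicates. Calls need an adjusted p under 0.05, and between sites or hair-cycle states also a log2 difference of 1. The fits were tested on simulated data. Correlations used Python 3.11.15, numpy 2.4.6 and scipy 1.17.1.

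Mouse numbers pair the sites, since both came from 1 animal: the median r of a mouse's back and tail deviations over genes was 0.14 against 0.0004 for different mice, and 18 of 82 tails matched their own back best. Fits are unpaired; paired ones are alternatives.

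Members and lists were chosen with earlier results of these data known. The text names the listed genes, the 4 genes of each pathway list that differ most between tail and non-anagen back skin and between the sexes at each site, the 10 genes most alike and the most alike gene of each member (not for Awat2 and Scd3, which fell into clusters); markers were named where a result touches them. The check on the Awat1 split, the anagen difference by sex, the differences of r and spread between sites, fits of 1 site and fits without 5 arrays were added after seeing the data. Alternatives varied scaling, probe set, dim-gene filter, moderation, batch, pairing, covariate and arrays.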

Additional observations from a re-analysis of the deposited data

Results flagged for a closer look

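The sex difference (female minus male) in back skin minus that in tail skin was -0.85 for Dgat2l6 and -0.60 for Elovl3, a difference between the sites by the limma interaction test (adjusted p = 0.0155 and 0.0016).

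Among the 6 anagen back arrays of males, 1 array lay far below the other 5 in 4 genes. It read 10.20 for Awat1, where the others ran from 11.37 to 11.50, 11.90 for Scd1 (12.66 to 12.87), 9.68 for Scd3 (11.34 to 12.30) and 11.33 for Far2 (12.17 to 12.30). The same array was 1 of the 5 least like their group. Of 16 groups of a gene and a sex looked at in this way, chance sets about 1 in 20 apart. The 4 values are of 1 array and the genes were correlated across anagen arrays. The groups are therefore not independent, and the 4 do not count as separate events.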

How the results depend on the processing

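Counts of genes or pairs called stayed within 1.5 times the reported count in 114 of the settings tried, fell in 11 and rose in 2. Some of the 114 used unchanged values. Each of the 8 genes had 1 probe set assigned to it alone, so averaging probe sets left its values as they were. All anagen arrays were in 1 batch, so keeping the larger batches left them all in. A count of 0 that stayed at 0 was also scored as unchanged. Of the 8 genes, 1 in place of 2 was called in tail against anagen back skin with arrays shifted to the same median, and 1 with quantile normalization. For female against male back skin, 3 in place of 6 were called with the larger batch at each site (batches 1 and 4) and 2 with 1 site alone; for the difference of that sex effect between sites, 1 in place of 2 with batches 1 and 4. In batches 1 and 4 the all-gene counts were 1330 higher and 1445 lower for sex in back skin. For the difference of that effect between sites they were 446 and 630. Of the 17 anagen pairs, 7 were called in females, 5 in males, 6 without the 5 arrays least like their group and 7 without the 2 farthest arrays. Across sites of a mouse, 1 gene in place of 3 was called in females. Of pairs whose r differed between sites, 4 in place of 2 were called on unadjusted values, 4 after the median shift and 1 in males. Signs turned for Far2 in tail against non-anagen back skin (-0.0173 after the shift, -0.0026 with quantile normalization). They also turned for values not called: without the 5 arrays Dgat2l6 (0.0614) and Mc5r (0.0862) in anagen back skin and Awat2 (0.12) in the anagen difference between sites; after the shift Dgat2l6 (-0.0018) there and Scd1 (0.0151) in tails by hair-cycle state; with the mouse as a replicate block Awat1 (-0.0020) in those tails. The cause was not tested. With the mouse as a random replicate block (correlation 0.0628 to 0.0768), no count of calls changed (3 genes for tail against non-anagen back skin, 6 for sex in back skin). The fixed block was fitted only for tail against non-anagen back skin and for the sex difference between sites, and no count changed there. All-gene counts moved too: for the anagen difference by sex from 54 higher and 10 lower to 177 and 17 after the shift, 124 and 40 with quantile normalization, 106 and 7 without dim genes, 118 and 25 in batches 1 and 4, and 2 and 0 without the 5 arrays; for sex in tail skin from 131 and 68 to 72 and 39 without dim genes and 309 and 225 on tail arrays alone; for the anagen difference between sites from 481 and 230 to 260 and 20 without the 5 arrays; for sex in back skin from 1851 and 1674 to 970 and 1073 on back arrays alone. With 14 anagen arrays, 6 of males, the anagen comparisons have the widest intervals.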
